A study of Saccharomyces cerevisiae with 12 samples.

Results

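The response of wild-type budding yeast to growth in sodium perchlorate was followed across 5664 transcripts, compared between 2 libraries of treated cells and 2 of untreated cells. The 5664 are all transcripts with a mean of at least 10 normalized counts over the 4 libraries, out of 5943 analysed; the other 279 fell below that mean and were not tested. A normalized count is the number of reads of a transcript divided by the size factor of its library. The strain was BY4741, a haploid of the a mating type derived from S288C, which is known to lack LEU2, MET17 and URA3 and to carry an internal deletion in HIS3. All cultures grew at 30 °C in Ura- medium and were harvested at an OD600 of 0.4 to 0.5; the treated cultures had 100 mM NaClO4 in the medium for the whole of their growth, so the comparison is of continuous growth and not of a short exposure. The same series holds 4 libraries of the edc3∆lsm4∆C strain (EDC3 deleted, and Lsm4 without its C-terminal Q/N-rich domain) untreated and in 100 mM NaClO4, and 2 libraries each of BY4741 left unshocked or shocked at 5.6 Mach; the mutant libraries are used below to set each change beside that of a second strain, and the unshocked libraries as a second untreated wild type. Nothing in the labels ties a replicate to its own culture; every p-value therefore reflects library-to-library spread alone, which may be technical.

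As a solute, sodium perchlorate raises the osmotic pressure of the medium, to which yeast responds through the kinase Hog1 by making and retaining glycerol. Its cation must be pumped out by the Ena ATPases, and its anion is chaotropic, weakening the packing of proteins and membranes. A broad range of stresses also releases the transcription factors Msn2 and Msn4 from inhibition by protein kinase A; both bind the stress response element in front of many genes. Many enzymes of central metabolism exist as a pair of isozymes in yeast, one made during fast growth on glucose and the other when glucose runs out or stress sets in.

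Between 14108937 and 17065326 reads per library fell on transcripts, and 5871 to 5895 transcripts had at least 1 read. Replicates correlated across genes with a Pearson r of 0.986 untreated and 0.993 in perchlorate, and their counts differed beyond sampling noise in both groups. LEU2 and MET17 had 0 reads in both untreated libraries and in perchlorate replicate 1, but 23 and 51 reads in perchlorate replicate 2. The mutant libraries, which carry both genes, held at least 5366 reads of LEU2 and 8873 of MET17. URA3, which BY4741 is known to lack, was read 2071 to 4198 times in each wild-type library. All these cultures grew in Ura- medium, and what carried the gene was not determined here. The 2 untreated libraries differed in the genes that respond: of the 325 genes that rose by at least 2-fold in perchlorate, 263 were higher in untreated replicate 1 than in replicate 2, by a median of 0.48 on the log2 scale, against a median of -0.01 over all genes tested. Of the same genes, 234 were also higher in perchlorate replicate 1 than in replicate 2, by a median of 0.12. Over all genes tested that median was -0.002. The part of these differences in the results was not tested; values without each library stand beside the results they change.

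Of the 5664 transcripts tested, 1499 (26.5%) passed at an adjusted p under 0.05 with limma on log2(value + 1); 811 (14.3%) rose and 688 (12.1%) fell. The rises were larger than the falls. At least 2-fold rises numbered 325 and at least 2-fold falls 71, while 84 genes rose and 7 fell by at least 4-fold. The median log2 change was 0.84 among genes that rose and -0.60 among genes that fell, and it was 0.00 over all genes tested. The 2 groups did not overlap in 67.9% of genes (33.7% higher and 34.2% lower in perchlorate). Genes that rose had a median untreated level of 448.6 normalized counts per coding kilobase, against 584 for all genes tested and 1642 for the genes that fell. The median was 260.7 for those that rose at least 2-fold and 1563 for those that fell at least 2-fold. The untreated level enters the change that sorted these genes, so this order is a description. As shares of all reads, the genes that rose went from 9.00% and 7.48% in the untreated libraries to 18.3% and 16.9% in perchlorate, and the genes that fell from 32.0% and 33.6% to 22.5% and 23.8%. These shares describe the genes that the same test called. The number called depended on single libraries, being 511 without perchlorate replicate 1, 838 without perchlorate replicate 2 and 2380 without untreated replicate 1. It also depended on the control: with the unshocked wild type in its place 2632 genes were called, which included 900 of the 1499, and 648 of these in the same direction. That control comes from another experiment of the series, and its values are given beside the results they change.

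The promoters of 6 of the genes with the largest changes are shown because each holds an element whose share of promoters differs between the classes of change counted further on. Others of these genes, GRE1, YHB1, DIC1 and INA1, hold none of the elements counted. Each is the stretch of 300 bases that begins 400 bases before the start codon, written 5′ to 3′ along the coding strand of the gene, from the R64 reference genome of RefSeq, whose transcript accessions are those of the deposited tables. The first 3 belong to genes that rose, with the stress response element (STRE, AGGGG, or CCCCT on the other strand) in capitals. NQM1 lies on the minus strand of chromosome VII (promoter chrVII:581537-581836), GND2 on the plus strand of the same chromosome (chrVII:1004224-1004523) and STL1 on the plus strand of chromosome IV (chrIV:1507605-1507904).
NQM1: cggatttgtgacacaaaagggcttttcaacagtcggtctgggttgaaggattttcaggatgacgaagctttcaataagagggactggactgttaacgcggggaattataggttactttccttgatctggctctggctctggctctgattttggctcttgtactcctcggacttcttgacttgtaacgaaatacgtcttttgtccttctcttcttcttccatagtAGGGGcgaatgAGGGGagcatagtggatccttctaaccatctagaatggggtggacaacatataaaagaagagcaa
GND2: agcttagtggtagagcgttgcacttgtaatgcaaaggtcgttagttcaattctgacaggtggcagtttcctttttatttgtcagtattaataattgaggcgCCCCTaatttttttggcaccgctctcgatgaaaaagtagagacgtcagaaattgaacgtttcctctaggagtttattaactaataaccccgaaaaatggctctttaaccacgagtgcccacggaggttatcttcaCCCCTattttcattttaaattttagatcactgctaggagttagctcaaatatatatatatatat
STL1: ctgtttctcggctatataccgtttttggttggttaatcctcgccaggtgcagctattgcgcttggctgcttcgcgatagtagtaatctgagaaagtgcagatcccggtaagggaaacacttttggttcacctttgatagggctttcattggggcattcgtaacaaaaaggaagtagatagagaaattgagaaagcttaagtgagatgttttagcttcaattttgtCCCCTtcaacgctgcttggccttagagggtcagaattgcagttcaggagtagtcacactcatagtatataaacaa
The other 3 belong to genes that fell. HIS4 (minus strand, chrIII:68434-68733) and ADE17 (minus strand, chrXIII:509381-509680) are shown with the core of the binding site of Gcn4 in capitals (TGACTC, or GAGTCA), and BAR1 (plus strand, chrIX:321942-322241) with the pheromone response element (TGAAACA, or TGTTTCA). Gcn4 is the activator of amino acid synthesis genes, and the pheromone element is bound by Ste12.
HIS4: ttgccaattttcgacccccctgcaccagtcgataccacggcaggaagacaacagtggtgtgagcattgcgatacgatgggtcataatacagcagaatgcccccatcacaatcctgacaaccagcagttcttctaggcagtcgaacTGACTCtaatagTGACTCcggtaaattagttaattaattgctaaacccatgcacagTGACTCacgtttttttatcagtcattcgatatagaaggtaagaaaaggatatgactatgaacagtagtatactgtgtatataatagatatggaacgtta
ADE17: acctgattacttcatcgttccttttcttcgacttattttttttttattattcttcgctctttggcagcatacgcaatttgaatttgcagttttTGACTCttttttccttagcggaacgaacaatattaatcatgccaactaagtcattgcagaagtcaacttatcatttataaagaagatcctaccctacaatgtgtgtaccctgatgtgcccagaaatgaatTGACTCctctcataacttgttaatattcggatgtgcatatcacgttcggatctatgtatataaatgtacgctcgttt
BAR1: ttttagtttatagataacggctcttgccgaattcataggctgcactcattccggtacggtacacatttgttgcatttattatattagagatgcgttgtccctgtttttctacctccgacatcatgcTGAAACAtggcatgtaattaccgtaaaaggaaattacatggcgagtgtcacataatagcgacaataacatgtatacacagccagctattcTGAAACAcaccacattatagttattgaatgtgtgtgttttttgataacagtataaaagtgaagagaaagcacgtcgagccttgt
The NQM1 and GND2 windows hold 2 STREs each and the STL1 window 1. The HIS4 window holds 3 Gcn4 cores, the ADE17 window 2, and the BAR1 window 2 pheromone elements. Only 1 kind of element is in capitals in each window, and HIS4, although it fell, also holds 1 STRE in lower case.

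The 12 largest rises included the glycerol symporter STL1, the hydrophilins GRE1 and SIP18, and TKL2, NQM1 and GND2 of the pentose phosphate pathway. STL1, the glycerol and proton symporter of the plasma membrane, stood at 10.1 and 12.5 in the untreated libraries and 753 and 749.8 in perchlorate (log2 change 5.94 ± 0.21, adjusted p = 2.48e-07). SIP18, a hydrophilin that helps cells survive drying, stood at 24.4 and 55.9 untreated and 1093 and 903 in perchlorate (4.71 ± 0.32, adjusted p = 1.05e-05). Both genes were nearly silent in untreated cells, and the groups did not overlap. PUT4, the high-affinity proline permease, went from 275 and 168 untreated to 4428 and 3948 in perchlorate (log2 change 4.28 ± 0.21, adjusted p = 1.6e-06). HXT5, a hexose transporter made by slowly growing cells, stood at 766 and 305 untreated and 10954 and 8416 in perchlorate (4.31 ± 0.33, adjusted p = 1.95e-05). The untreated HXT5 values lay apart by more than 2-fold, and both were far below either perchlorate value. ALD3, a cytosolic aldehyde dehydrogenase that also serves coenzyme A synthesis, had 1060.4 and 593 untreated and 15037 and 12558 in perchlorate (4.11 ± 0.23, adjusted p = 3.77e-06). FMP16, a mitochondrial protein of unknown role that stress induces, had 286 and 221 untreated and 3408 and 3029 in perchlorate (3.67 ± 0.16, adjusted p = 7.41e-07). POT1, the thiolase of peroxisomal fatty acid oxidation, stood at 44.6 and 19.4 untreated and 442 and 286 in perchlorate (3.55 ± 0.36, adjusted p = 0.000119). SPS100, a spore wall protein whose transcript overlaps another gene, had 68 and 65 untreated and 1961 and 997 in perchlorate (4.37 ± 0.27, adjusted p = 6.7e-06), and counting may have shared reads between the overlapping genes. GRE1, TKL2, NQM1 and GND2 are described with their groups. All 12 were also called higher against the unshocked wild type, with log2 changes between 0.82 for FMP16 and 5.18 for STL1.

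Of the 12 largest falls, 4 were in genes of purine or amino acid synthesis, 4 in genes of mating and 4 in genes of neither kind. IMD2, an inosine monophosphate dehydrogenase of guanine nucleotide synthesis, had the largest fall, from 644 and 694 untreated to 66.7 and 94.4 in perchlorate (log2 change -3.06 ± 0.20, adjusted p = 8.59e-06). ADE17, an enzyme of the last steps to inosine monophosphate, stood at 7628 and 9361 untreated and 1668 and 1446 in perchlorate (-2.44 ± 0.15, adjusted p = 6.7e-06). HIS4, a multifunctional enzyme of histidine synthesis, stood at 6198 and 7254 untreated and 1709.9 and 1599 in perchlorate (-2.02 ± 0.14, adjusted p = 1.13e-05). LEU1, isopropylmalate isomerase of leucine synthesis, had 13587 and 13757 untreated and 4078 and 4061 in perchlorate (-1.75 ± 0.13, adjusted p = 1.33e-05). In all 4 genes both perchlorate values lay far below either untreated value, and in LEU1 they were nearly the same. YHB1, the flavohemoglobin that detoxifies nitric oxide, stood at 4338 and 5201 untreated and 775 and 1049.5 in perchlorate (-2.40 ± 0.17, adjusted p = 1.33e-05). DIC1, the mitochondrial dicarboxylate carrier, had 3335 and 3760.5 untreated and 926 and 959 in perchlorate (-1.91 ± 0.13, adjusted p = 1.29e-05), and INA1, a membrane protein of the Sur7 family, 3929 and 5188 untreated and 1224 and 1298 in perchlorate (-1.84 ± 0.16, adjusted p = 4.1e-05). Against the unshocked wild type the call of INA1 ended (-0.17, adjusted p = 0.178 with limma), while the other 11 were called lower, by log2 changes between -3.42 and -1.02. MFA1, MFA2, BAR1 and FUS1, which encode the a-factor pheromone, the protease that degrades alpha-factor and a cell fusion protein, had log2 changes of -1.93, -2.22, -1.82 and -2.09, and all 4 passed. The last of the 12, YPR137C-B, is a transposon reading frame with near-identical copies elsewhere; its perchlorate values of 23.1 and 73.6 lay far apart and it no longer passed without perchlorate replicate 1.

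**Figure D1:**
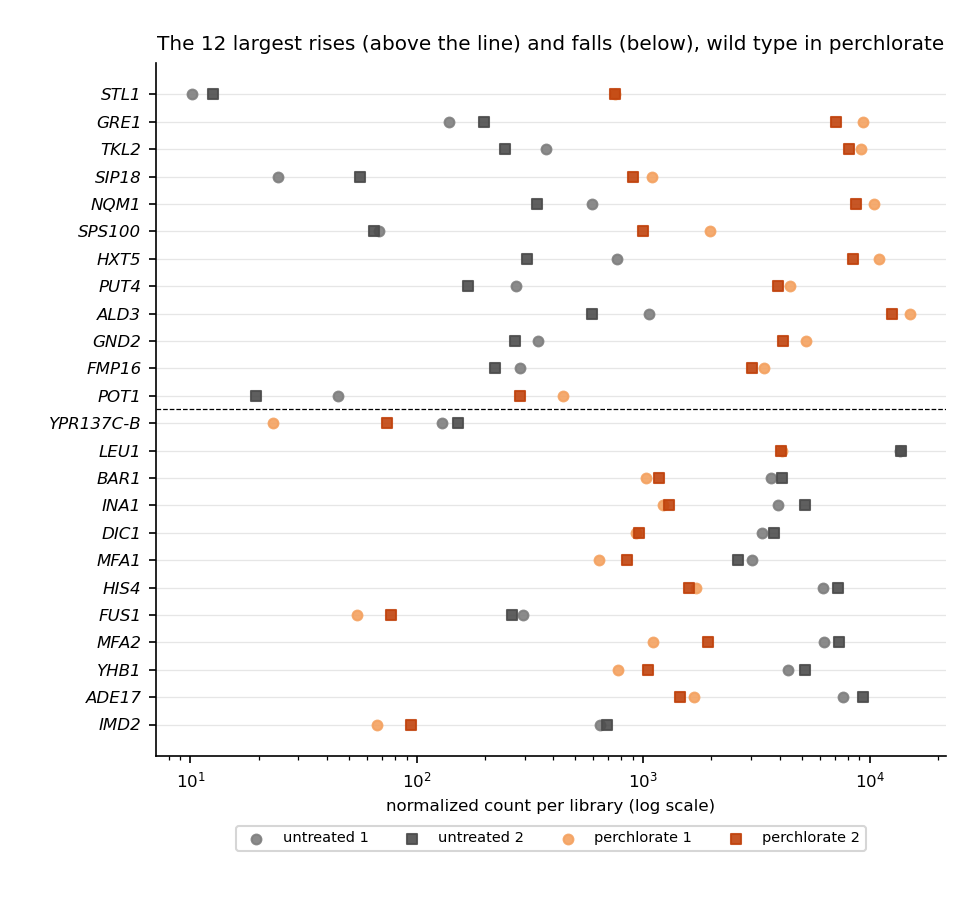
Normalized count in each of the 4 wild-type libraries (x axis, log scale) for the 12 genes with the largest rises and the 12 with the largest falls; circles are replicate 1 and squares replicate 2, grey untreated and orange perchlorate. The groups do not overlap in any of the 24 genes, which was a condition for showing them; STL1 goes from 10.1 and 12.5 to 753 and 749.8.

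Genes of glycerol metabolism rose and none fell. Of 16 genes tested, 8 rose, against 14.3% of all genes. The rise covered both steps of glycerol synthesis. GPD1, the glycerol 3-phosphate dehydrogenase made under osmotic stress, went from 9752 and 8473 untreated to 29167 and 30246 in perchlorate (log2 change 1.71 ± 0.14, adjusted p = 2.45e-05). GPP2, the phosphatase of the next step, went from 4943 and 3422 untreated to 13830.0 and 13298 in perchlorate (1.72 ± 0.17, adjusted p = 0.000125). The isozymes known for other roles moved less: GPD2, which rebalances redox without oxygen, had a log2 change of -0.14 ± 0.13, adjusted p = 0.458, and GPP1 of 0.47 ± 0.14, adjusted p = 0.0297, a call that ended when any single library was left out; GPD2 had 0.46 against the unshocked wild type. DAK1, the main dihydroxyacetone kinase of glycerol breakdown, rose by 1.54 ± 0.15, and GUT2, the mitochondrial glycerol 3-phosphate dehydrogenase, by 1.31 ± 0.27, which DESeq2 did not call. GCY1, a glycerol dehydrogenase of the alternative route, rose by 1.84 ± 0.24, but against the unshocked wild type its log2 change was -0.24. FPS1, the channel through which glycerol leaves the cell, did not pass (0.03 ± 0.14, adjusted p = 0.908). Without perchlorate replicate 1 or 2, 6 glycerol genes rose. The unshocked control gave 9 higher and 2 lower, with log2 changes of 1.59 for GPP1 and 0.30 for FPS1, which then passed.

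Few transcripts of the signalling pathway above the glycerol genes passed. Of 25 sensors, kinases, phosphatases and transcription factors of the high osmolarity pathway, 2 rose and 2 fell, and the log2 changes lay between -0.50 and 0.56. STE11, a kinase shared with the mating pathway, had a log2 change of 0.56 ± 0.14, and SHO1, a membrane sensor, of -0.50 ± 0.13. All 4 calls ended without either perchlorate library, 6 genes rose without untreated replicate 1, and with the unshocked control 7 were higher and 4 lower, with STE11 at 0.15 and SHO1 at 0.20. Among 29 ion pumps, channels and their regulators, 6 rose and 1 fell, against 14.3% and 12.1% of all genes. PMA2, the minor isoform of the plasma membrane proton pump, went from 433 and 464 untreated to 2712 and 1699 in perchlorate (2.26 ± 0.20, adjusted p = 5.55e-05), while PMA1, the major isoform, had a log2 change of -0.20 ± 0.16, adjusted p = 0.397. ENA1, the sodium pump, went from 467 and 516 untreated to 1064 and 1012 in perchlorate (1.08 ± 0.14, adjusted p = 0.000604); ENA1 has near-identical neighbours, so reads may be split among the copies. PMC1, the vacuolar calcium pump, rose by 0.83 ± 0.21, a call that ended without perchlorate replicate 1, and CNA1, a catalytic subunit of calcineurin, fell by 0.54 on the log2 scale, a call that ended without either perchlorate library. Without perchlorate replicate 1, 2 ion transport genes rose, without replicate 2 they were 3, and without untreated replicate 1 they were 12. The unshocked control gave 9 higher and 4 lower, and neither PMC1 (0.15) nor CNA1 (-0.24) passed.

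Hydrophilins, small and highly hydrated proteins known to protect other molecules when water is scarce, all rose. GRE1 stood at 139 and 198 untreated and 9334 and 7065 in perchlorate (log2 change 5.60 ± 0.20, adjusted p = 2.48e-07). HSP12, a membrane-stabilising protein, went from 17451 and 12327 untreated to 87012 and 87241 in perchlorate (2.57 ± 0.17, adjusted p = 1.05e-05) and was the most abundant of the 5 in every library by normalized count per coding length. ROQ1, a regulator of protein degradation, rose by 1.76 ± 0.32, and STF2, a protein protecting dry cells, by 1.51 ± 0.26. All 5 calls held without each library in turn, but against the unshocked wild type 3 were higher and 1 lower, ROQ1 and STF2 having log2 changes of -0.27 and -0.61. In the broader group of 28 general stress effectors 27 rose, against 14.3% of all genes, with a median log2 change of 1.77, against 0.00 over all genes tested. The list was chosen with earlier results of these data known, so its count is a description. It shares HSP12 with the hydrophilin list, SOL4 with the pentose phosphate list, and SPI1 and YGP1 with the cell wall list. Others, such as DDR2 and PNC1, are also in lists not described here. The largest were RTN2, a reticulon of the endoplasmic reticulum (3.01 ± 0.26), CTT1, the cytosolic catalase (2.88 ± 0.28), and HSP26, a small heat shock protein (2.86 ± 0.21). The single member that did not pass, TMA10, is named for that reason after its values were seen (2335 and 554 untreated and 2204 and 2028 in perchlorate); its untreated values lay more than 4-fold apart. HSP26 and TMA10 had log2 changes of -0.14 and -0.68 against the unshocked wild type, where 12 of the 28 were higher and 8 lower in perchlorate; RTN2 and CTT1 passed there at 0.44 and 0.73.

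In the pentose phosphate pathway, which makes NADPH and ribose 5-phosphate, the minor isozyme of each of 4 steps rose and no major isozyme did. TKL2, the minor transketolase, went from 373 and 246 untreated to 9122 and 8130.3 in perchlorate (log2 change 4.82 ± 0.19, adjusted p = 4.18e-07). TKL1, the major transketolase, had 20737 and 22885 untreated and 16597 and 18158 in perchlorate (-0.33 ± 0.14, adjusted p = 0.0998). The minor gene thus went from 1.77% and 1.06% of the pair's normalized counts per coding length to 35.4% and 30.9%. NQM1, the minor transaldolase, went from 593 and 339 untreated to 10445 and 8687 in perchlorate (4.41 ± 0.23, adjusted p = 2.1e-06), and from 3.91% and 2.46% of the pair to 47.5% and 41.4%. Its partner TAL1 had a log2 change of -0.23 ± 0.13, adjusted p = 0.216. GND2, the minor phosphogluconate dehydrogenase, went from 342 and 270.2 untreated to 5224 and 4130.5 in perchlorate (3.93 ± 0.17, adjusted p = 7.41e-07), while GND1, the major enzyme, fell from 13064 and 14322 untreated to 7809 and 8543 in perchlorate (-0.74 ± 0.13, adjusted p = 0.00381). The share of GND2 went from 2.54% and 1.84% to 39.9% and 32.5%. SOL4, the minor phosphogluconolactonase, rose by 1.95 ± 0.30 and SOL3 had a log2 change of -0.36 ± 0.15, adjusted p = 0.102; against the unshocked wild type SOL4 had -0.74. ZWF1, the single glucose 6-phosphate dehydrogenase that opens the pathway, did not pass (0.35 ± 0.13, adjusted p = 0.0736), nor did RPE1 (-0.30 ± 0.16, adjusted p = 0.181), and RKI1, the ribose 5-phosphate isomerase, fell by 0.60 on the log2 scale (a call that ended without perchlorate replicate 1, with a log2 change of 0.64 against the unshocked wild type). Of the 15 genes 6 rose and 2 fell, against 14.3% and 12.1% of all genes. Whether the 2 members of a pair differed in response was not tested.

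In other pairs too the members often had unlike calls. Over 52 pairs of isozymes or near paralogs, 8 had 1 member that rose and 1 that fell, 21 had 1 that rose beside 1 not called, and 5 had both members rise. In 8 pairs 1 member fell beside 1 not called, in 3 both fell, and in 7 neither passed. These counts do not record which member is the minor one. Over all genes 26.5% were called, and no count over other pairs of genes was made. With the unshocked control 7 pairs had 1 member higher and 1 lower, 12 had 1 higher beside 1 not called, and 16 had 1 lower beside 1 not called. Pairs with 1 member that rose and 1 that fell numbered 5 without perchlorate replicate 1 or untreated replicate 2, and 12 without untreated replicate 1. ENO1, the enolase less used on glucose, went from 37352 and 28423 untreated to 86640.0 and 95228 in perchlorate (log2 change 1.48 ± 0.16, adjusted p = 0.000207), and ENO2, the glycolytic enolase, from 271030.0 and 326350.0 untreated to 138510.0 and 175830.0 in perchlorate (-0.93 ± 0.18, adjusted p = 0.00478). ENO1 thereby went from 12.1% and 8.01% of the pair to 38.5% and 35.1%; its log2 change against the unshocked wild type was -0.29, and the call of ENO2 ended without untreated replicate 2. FMP45, a membrane protein made in respiring and sporulating cells, went from 1153 and 524 untreated to 5824 and 4964 in perchlorate (2.79 ± 0.29, adjusted p = 0.000147) beside SUR7, the eisosome protein of growing cells (-0.44 ± 0.16, adjusted p = 0.0691). FMP45 held 31.2% and 13.5% of that pair untreated and 74.4% and 68.3% in perchlorate. GSC2, the stress-induced subunit of the beta-glucan synthase of the cell wall, went from 4748 and 4189 untreated to 19649 and 18872 in perchlorate (2.11 ± 0.13, adjusted p = 8.13e-06), with FKS1, the main subunit, at -0.09 ± 0.15, adjusted p = 0.685. YRO2, a membrane protein of the Hsp30 family, went from 2650.4 and 2418 untreated to 9337 and 9235 in perchlorate (1.87 ± 0.13, adjusted p = 1.16e-05), and its paralog MRH1 had a log2 change of 0.02 ± 0.15, adjusted p = 0.924; the call of YRO2 ended against the unshocked wild type (0.08, adjusted p = 0.63). TSA2, a peroxiredoxin, rose by 2.68 ± 0.25 beside TSA1 (0.10 ± 0.15, adjusted p = 0.662), and NDE2, an external NADH dehydrogenase, by 2.56 ± 0.29 beside NDE1 (-0.06 ± 0.13, adjusted p = 0.758).

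In other pairs the share moved with a fall of 1 member. ADE17 fell while ADE16, the isozyme of the same 2 reactions, stood at 5373 and 4068 untreated and 5099 and 4314 in perchlorate (0.00 ± 0.16, adjusted p = 0.987). ADE17 went from 58.6% and 69.7% of the pair to 24.6% and 25.1%. BAT1, the mitochondrial branched-chain aminotransferase, fell from 9325 and 10422 untreated to 3866 and 4087 in perchlorate (-1.31 ± 0.13, adjusted p = 0.000125), and BAT2, the cytosolic enzyme, had a log2 change of -0.04 ± 0.14, adjusted p = 0.862. PYC1 and PYC2, the pyruvate carboxylases, went apart: PYC1 rose by 1.06 ± 0.17 and PYC2 had a log2 change of -0.58 ± 0.13, which no longer passed without perchlorate replicate 2. SER33 and SER3, which open serine synthesis, also went apart, at 0.63 ± 0.14, adjusted p = 0.00953 and -1.26 ± 0.13, adjusted p = 0.000156; SER3 overlaps another gene, and the call of SER33 ended without either perchlorate library. HSC82, the constitutive Hsp90, fell from 41605 and 35917 untreated to 23178 and 20413 in perchlorate (-0.83 ± 0.15, adjusted p = 0.00337), and HSP82, the heat-inducible copy, had a log2 change of 0.15 ± 0.16, adjusted p = 0.522, or -0.95 against the unshocked wild type.

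**Figure D2:**
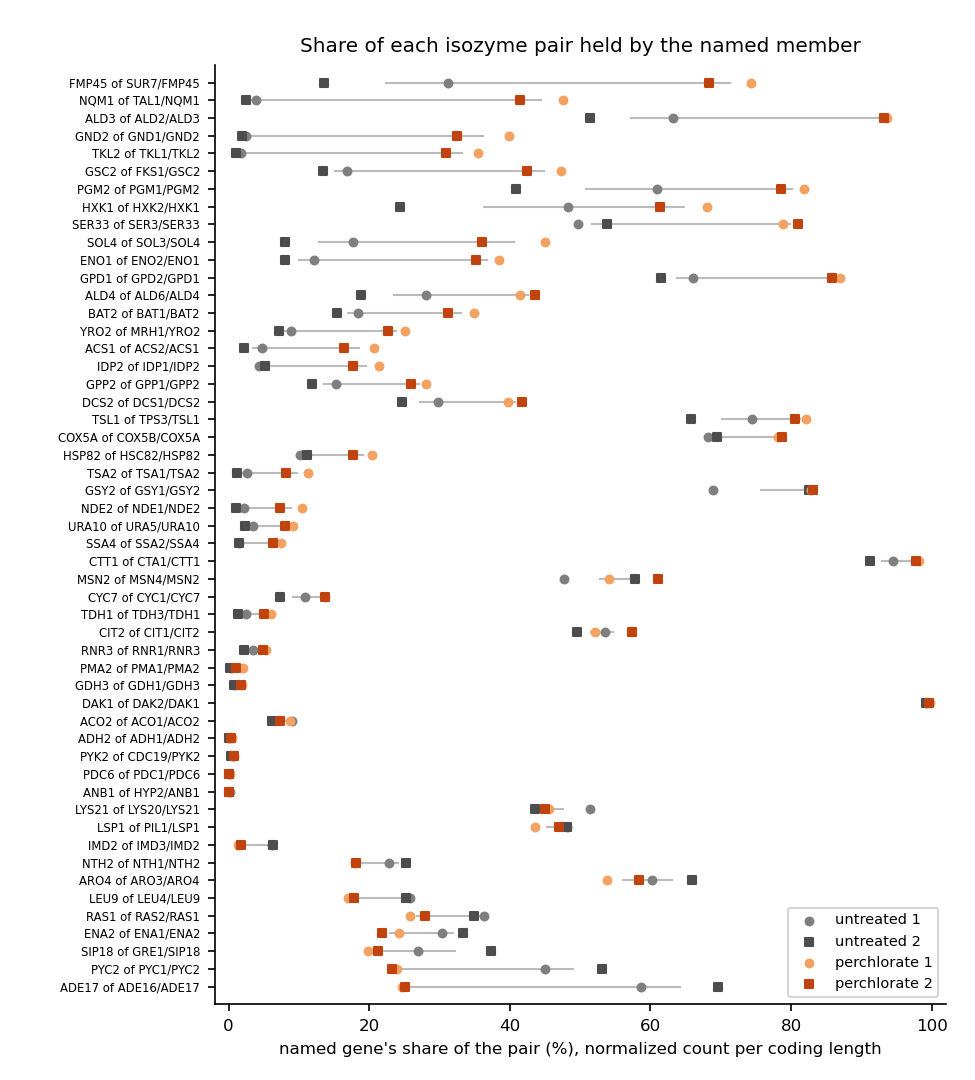
Share of each of 52 gene pairs held by the member named on the left (x axis, per cent of the pair's normalized counts per coding length), in each of the 4 libraries; grey is untreated, orange is perchlorate, and a line joins the group means. Pairs are ordered by the change: FMP45, NQM1, ALD3 and GND2 at the top gain share, and ADE17 and PYC2 at the bottom lose it.

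Reserve carbohydrates gave a weaker and less stable picture. Of 7 trehalose genes 5 rose and none fell, against 14.3% and 12.1% of all genes. TPS1, the trehalose 6-phosphate synthase, went from 11981 and 7409 untreated to 23442 and 21510.0 in perchlorate (log2 change 1.25 ± 0.20, adjusted p = 0.00219), TPS2, the phosphatase, from 8779 and 3995 untreated to 15468 and 12831 in perchlorate (1.25 ± 0.29, adjusted p = 0.0127), and TSL1, a regulatory subunit, from 11225 and 5639 untreated to 19995 and 16344 in perchlorate (1.18 ± 0.26, adjusted p = 0.0108). In all 3 the untreated replicates lay further apart than the perchlorate replicates, and both were lower. NTH1 and ATH1, which break trehalose down, rose by 0.82 ± 0.22 and 0.93 ± 0.21, calls that ended without perchlorate replicate 1, while NTH2 and TPS3 did not pass (0.30 ± 0.19 and 0.31 ± 0.16). DESeq2 called 3 of the trehalose genes, leaving out TPS2 and TSL1; without perchlorate replicate 1 the test called 3 and without untreated replicate 1 it called 7. Of 14 glycogen genes 7 rose and 1 fell; 3 rose without perchlorate replicate 1 and 12 without untreated replicate 1. GSY2, the main glycogen synthase, did not pass (0.64 ± 0.26, adjusted p = 0.0914), and GSY1, the minor one, stood at 3074 and 723 untreated and 1635 and 1445 in perchlorate (0.04 ± 0.49, adjusted p = 0.958). Untreated replicate 1 held more than 4 times as much GSY1 as replicate 2. Without untreated replicate 2 the log2 change of GSY1 was -1.0. Against the unshocked wild type none of the trehalose genes was higher in perchlorate and 3 were lower, and 11 of the 14 glycogen genes were lower; TPS1, TPS2 and TSL1 had log2 changes of 0.10, -0.33 and -0.59, NTH1 of 0.06, ATH1, NTH2 and TPS3 of -0.20, -0.67 and -0.41, and GSY1 and GSY2 of -2.94 and -1.31.

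Many genes for using carbon sources other than glucose rose. Of 11 genes of the glyoxylate cycle and gluconeogenesis 8 rose and 1 fell, and of 20 genes of fatty acid oxidation 14 rose and 1 fell. MLS1, malate synthase, went from 31.5 and 34.2 untreated to 307 and 233 in perchlorate (log2 change 2.99 ± 0.22, adjusted p = 1.64e-05), PCK1, which opens gluconeogenesis, from 129 and 101 untreated to 706 and 689 in perchlorate (2.60 ± 0.17, adjusted p = 1.04e-05), and SFC1, a mitochondrial succinate and fumarate carrier, from 22.3 and 13.7 untreated to 148 and 118 in perchlorate (2.85 ± 0.30, adjusted p = 0.000163). POX1, the acyl-CoA oxidase, had 126 and 35.3 untreated and 815 and 600.4 in perchlorate (3.37 ± 0.45, adjusted p = 0.000696), and CRC1, the mitochondrial acylcarnitine carrier, 52.8 and 36.5 untreated and 259 and 206 in perchlorate (2.37 ± 0.24, adjusted p = 0.000131). The untreated POX1 values differed more than 3-fold. The exception in fatty acid oxidation was FAA3, a long-chain acyl-CoA synthetase, which fell from 1320.1 and 1647 untreated to 795 and 818 in perchlorate (-0.87 ± 0.15, adjusted p = 0.00306), with 0.08 against the unshocked wild type. Of 28 peroxisome biogenesis genes 4 rose, a share equal to the 14.3% of all genes, led by PEX18, a cofactor for the import of the thiolase Pot1, at 39.6 and 16 untreated and 313 and 230.2 in perchlorate (3.36 ± 0.37, adjusted p = 0.000184); the other 3 calls ended without either perchlorate library. Without perchlorate replicate 1, 7 glyoxylate and 13 fatty acid oxidation genes rose. With the unshocked control 7 and 17 were higher and 1 of each lower, while of the peroxisome biogenesis genes 7 were higher and 9 lower. ACO1, the aconitase of the mitochondrial citrate cycle, which also belongs to the glyoxylate list, had a log2 change of -0.60 ± 0.15, and its call ended without perchlorate replicate 1 or untreated replicate 2.

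Most genes of succinate dehydrogenase, the bc1 complex and the ATP synthase rose, by smaller amounts, and fewer of those of cytochrome c oxidase did. Of 8 genes of succinate dehydrogenase and its assembly 7 rose, with a median log2 change of 0.76. Of 12 genes of the cytochrome bc1 complex 10 rose (median 0.75), of 26 of cytochrome c oxidase and cytochrome c 10 (median 0.24), and of 17 of the ATP synthase 16 (median 0.64). None of these genes fell, while over all genes 14.3% rose and 12.1% fell. SDH1, the flavoprotein subunit, went from 2761 and 2223 untreated to 5192 and 5176 in perchlorate (log2 change 1.06 ± 0.14, adjusted p = 0.000792) and QCR10, a subunit of the bc1 complex, from 894 and 869.7 untreated to 1594 and 1906 in perchlorate (0.98 ± 0.14, adjusted p = 0.00122). INH1 and STF1, which inhibit the ATP synthase when it would run backwards, rose by 0.96 ± 0.15 and 1.17 ± 0.16; STF1 had -0.37 against the unshocked wild type. With that control 2, 8, 6 and 13 genes of the 4 complexes were higher and 1, 1, 12 and 2 lower, the call of SDH1 ended (0.18, adjusted p = 0.157) and QCR10 stood at 0.44. Of 78 ribosomal proteins of the mitochondrion 3 rose and none fell, with a median log2 change of -0.01; none rose without either perchlorate library, and against the unshocked wild type 3 were higher and 52 lower. The counts of rises were 5, 6, 5 and 10 in the 4 complexes without perchlorate replicate 1, and 4, 8, 2 and 8 without perchlorate replicate 2.

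Genes of protein synthesis fell by moderate amounts. Of 19 cytosolic aminoacyl-tRNA synthetases 16 fell, against 12.1% of all genes, and of 38 initiation, elongation and termination factors 23 fell. No member of either list rose, and the log2 change of every member was below 0. MES1, the methionyl-tRNA synthetase, went from 6904 and 7050.3 untreated to 4152 and 4112 in perchlorate (log2 change -0.76 ± 0.13, adjusted p = 0.00262), and THS1, which charges threonyl-tRNA, from 14552 and 12724 untreated to 8449 and 7835 in perchlorate (-0.74 ± 0.14, adjusted p = 0.00423). TIF4631, the initiation factor 4G, went from 5851 and 7316 untreated to 3819.5 and 4078 in perchlorate (-0.73 ± 0.15, adjusted p = 0.00672), and TEF4, an elongation factor subunit, from 34028 and 38084 untreated to 19792 and 22554 in perchlorate (-0.77 ± 0.14, adjusted p = 0.00435); TEF4 overlaps another gene. Of 20 subunits of RNA polymerases I and III 10 fell, RPA43 by 0.77 and RPA49 by 0.62 on the log2 scale. The counts depended on the libraries: without perchlorate replicate 1 they were 9, 4 and 0, and without perchlorate replicate 2 they were 8, 9 and 5. RNA polymerase falls numbered 16 without untreated replicate 1, and translation factor falls 15 without untreated replicate 2. Against the unshocked wild type 1, 3 and 0 were lower and 3, 8 and 14 higher, with log2 changes of 0.29 for MES1, 0.04 for TEF4 and 0.80 for RPA49, while THS1 (-0.28), TIF4631 (-0.06) and RPA43 (-0.0084) did not pass.

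Purine synthesis fell further. Of 12 genes leading to inosine and adenosine monophosphate 8 fell and none rose, against 12.1% and 14.3% of all genes. Their median log2 change was -0.93. ADE13, adenylosuccinate lyase, went from 8553 and 9271 untreated to 3867 and 3866 in perchlorate (log2 change -1.20 ± 0.13, adjusted p = 0.000166), and ADE57, an enzyme of early steps, from 10223 and 12445 untreated to 5076 and 5467 in perchlorate (-1.10 ± 0.14, adjusted p = 0.000635). At least 8 fell without each library in turn. Against the unshocked wild type ADE13, ADE57 and ADE17 had log2 changes of -1.40, -1.03 and -3.13. In guanine nucleotide synthesis and salvage 7 of 15 genes fell and 1 rose; 3 fell without perchlorate replicate 1, and with the unshocked control 5 were lower and 5 higher. IMD3, the paralog of IMD2, fell from 9746 and 10311 untreated to 4864 and 5398 in perchlorate (-0.97 ± 0.13, adjusted p = 0.000815), and HPT1, which salvages hypoxanthine and guanine, from 2704 and 2919 untreated to 1332 and 1474 in perchlorate (-1.0 ± 0.13, adjusted p = 0.00074). IMD2 held 6.26% ± 0.08 (SD, n = 2) of the pair's counts per coding length untreated and 1.54% ± 0.26 (SD, n = 2) in perchlorate.

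Amino acid synthesis was not lowered evenly. Of 12 branched-chain genes 7 fell and of 6 histidine genes 5 fell, whereas of 9 lysine genes none passed. Over all genes 12.1% fell and 14.3% rose. The lysine changes lay between -0.36 and 0.35 on the log2 scale, with a median of -0.09, 2 had an unadjusted limma p under 0.05, and DESeq2 called 1. OAC1, a mitochondrial carrier used in leucine synthesis, went from 1622 and 1584 untreated to 561 and 616 in perchlorate (log2 change -1.45 ± 0.14, adjusted p = 8.2e-05), and LEU9, an isopropylmalate synthase, from 3381 and 3672 untreated to 1362 and 1520.3 in perchlorate (-1.29 ± 0.14, adjusted p = 0.000153), although against the unshocked wild type LEU9 had 0.11 and the call of OAC1 ended (-0.33, adjusted p = 0.126). HIS1, the enzyme that commits to histidine synthesis, went from 5319 and 5902 untreated to 2351 and 2495 in perchlorate (-1.21 ± 0.13, adjusted p = 0.000187). In the arginine list synthesis and breakdown parted: ARG1, argininosuccinate synthase, fell from 4362 and 5442 untreated to 2163 and 1839.7 in perchlorate (-1.29 ± 0.15, adjusted p = 0.000355) and ARG4 by 0.76 on the log2 scale, while the breakdown enzymes CAR1 and CAR2 rose by 0.62 ± 0.14 and 0.61 ± 0.13. The calls of CAR1 and CAR2 ended without perchlorate replicate 2, and that of CAR1 also without replicate 1. Without perchlorate replicate 1 the branched-chain and histidine falls numbered 6 and 3, and without replicate 2 they numbered 7 and 3. The unshocked control gave 3 branched-chain and 4 histidine genes lower, 4 lysine genes higher, and 7 arginine genes higher and 4 lower.

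Uptake and use of nitrogen compounds moved the other way. Of 8 genes of glutamate and ammonium metabolism 5 rose and none fell, of 23 amino acid and peptide permeases 11 rose and 4 fell, and of 19 genes for the use of proline, allantoin, urea and gamma-aminobutyrate 10 rose and 1 fell. Over all genes 14.3% rose and 12.1% fell, so the share of permeases that fell, 17.4%, was near that of all genes. The 3 ammonium permeases rose, MEP2 from 555 and 627 untreated to 1770.1 and 1645 in perchlorate (log2 change 1.53 ± 0.14, adjusted p = 6.59e-05), MEP1 by 1.35 ± 0.14 and MEP3 by 1.02 ± 0.14. GDH2, which releases ammonium from glutamate, went from 1758 and 1326 untreated to 4642 and 4104 in perchlorate (1.51 ± 0.16, adjusted p = 0.000163). GAP1, the general amino acid permease, went from 1383 and 1375 untreated to 5571 and 3945 in perchlorate (1.76 ± 0.17, adjusted p = 9.16e-05). These genes share a known regulation by nitrogen source, as does DAL3, an enzyme of allantoin use (1.72 ± 0.21). BAP2, a permease for branched-chain amino acids, fell from 8295 and 7660.1 untreated to 4543 and 4723 in perchlorate (-0.78 ± 0.13, adjusted p = 0.00246), and OPT2, an oligopeptide transporter, from 474 and 506 untreated to 204 and 172 in perchlorate (-1.38 ± 0.16, adjusted p = 0.000318). PUT1, proline oxidase, stood at 657 and 125 untreated and 1364 and 1228 in perchlorate (2.17 ± 0.55, adjusted p = 0.0183); its untreated values differed more than 5-fold and its call ended without perchlorate replicate 1 and with DESeq2. Without perchlorate replicate 1, 6 of the nitrogen use genes rose, and without replicate 2, 7 permeases did. In glutamate and ammonium metabolism 5 genes rose without each library in turn. With the unshocked control 6, 11 and 7 genes of the 3 lists were higher and 1, 5 and 0 lower.

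Most vacuolar hydrolases and their inhibitors rose. Of 15 genes listed as such, called vacuolar genes below, 12 rose. The list and its rises include VHS1, a protein kinase that is neither a hydrolase nor an inhibitor. Of 37 proteasome subunits and assembly factors none passed in either direction. Over all genes 14.3% rose and 12.1% fell. PAI3, the cytosolic inhibitor of the vacuolar protease Pep4, went from 137 and 112 untreated to 1075 and 1045 in perchlorate (log2 change 3.09 ± 0.16, adjusted p = 2.1e-06), and TFS1, an inhibitor of carboxypeptidase Y, from 1986 and 1197 untreated to 5859.9 and 5351 in perchlorate (1.86 ± 0.21, adjusted p = 0.000228). AMS1, the vacuolar alpha-mannosidase, rose by 2.16 ± 0.25. The proteasome genes had a median log2 change of -0.07 and a range from -0.33 to 0.47; 3 had an unadjusted limma p under 0.05, DESeq2 called 1, and against the unshocked wild type 1 was higher and 13 lower. That control left 6 of the 15 vacuolar genes higher and 2 lower, and TFS1 did not pass (0.26, adjusted p = 0.0674). Without either perchlorate library 8 vacuolar genes rose, and 7 without untreated replicate 2.

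At the cell surface, 11 of 41 cell wall genes rose and 4 fell, against 14.3% and 12.1% of all genes. PIR3, a wall glycoprotein, went from 637 and 458 untreated to 3296 and 2753 in perchlorate (log2 change 2.48 ± 0.18, adjusted p = 1.33e-05), and SPI1, a wall protein of the stationary phase, from 2450.5 and 1139 untreated to 6570.2 and 7485 in perchlorate (2.07 ± 0.28, adjusted p = 0.000792), a call that ended against the unshocked wild type (0.25, adjusted p = 0.146). UTR2, a glycosidase that links chitin to glucan, fell from 7384 and 9715 untreated to 2725 and 3600.5 in perchlorate (-1.43 ± 0.18, adjusted p = 0.000441), and TIP1, a mannoprotein, from 6364 and 6508 untreated to 2906 and 2788 in perchlorate (-1.18 ± 0.13, adjusted p = 0.000174). INO1, which makes inositol phosphate for membrane lipids, went from 899 and 1467 untreated to 7423 and 9305 in perchlorate (2.85 ± 0.22, adjusted p = 1.75e-05), but its log2 change was -1.73 against the unshocked wild type; of the other 24 genes of phospholipid synthesis only PAH1 passed, by 0.55 ± 0.14, and its call ended without either perchlorate library. With the unshocked control 1 of the 25 was higher and 13 were lower, with PAH1 at 0.03. Ergosterol synthesis gave 1 rise and 1 fall among 29 genes, but with the unshocked control 17 were higher and 4 lower. A list of genes expressed in daughter cells or early in the G1 phase of the cell cycle, called daughter genes below, fell in 8 of 15 cases. The largest falls in it were those of NIS1 (-0.95 ± 0.16), DSE1 (-0.70 ± 0.13) and DSE2 (-0.69 ± 0.13). Of 10 histone genes 6 fell, led by HTB2 (-0.84 ± 0.17) and HTA2 (-0.76 ± 0.14). In such bulk samples fewer cells at a stage of the cycle and less RNA per cell cannot be told apart. Without perchlorate replicate 1 the daughter and histone falls numbered 3 and 2, and without replicate 2 they numbered 5 and 2, as they did without untreated replicate 2. Cell wall rises numbered 7 without perchlorate replicate 1, and with the unshocked control 10 wall genes were higher and 8 lower. The same control gave 9 daughter genes lower and 2 higher, and 6 histone genes lower.

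**Figure D3:**
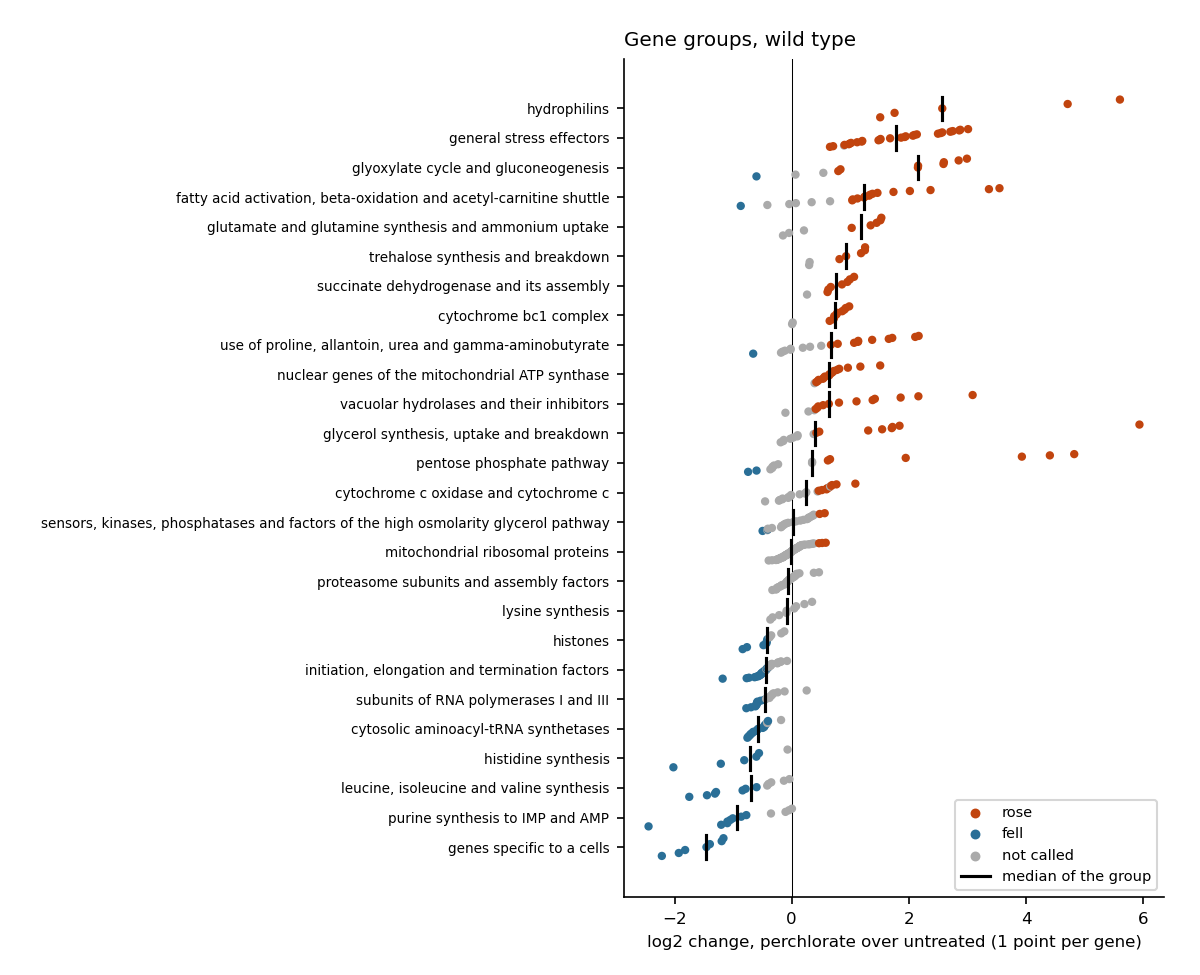
Log2 change in perchlorate over untreated wild type (x axis) for each tested member of 26 gene groups, 1 point per gene; red points rose, blue points fell and grey points were not called, and the black bar is the group's median. The hydrophilins and stress effectors lie to the right of 0, the proteasome, lysine and mitochondrial ribosome groups around 0, and the synthetases, translation factors and purine genes to the left.

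The elements shown at the start were counted in the same window of all promoters, on both strands, as letter matches. A match is a description of the window and no evidence of binding. STRE was in 23.8% of the promoters of all genes tested, in 51.5% of those that rose at least 2-fold, in 60.7% of those that rose at least 4-fold and in 16.3% of those that fell. The more STREs a window held, the higher was the median log2 change: it was -0.04 for the 4313 genes with none, 0.10 for 1106 genes with 1, 0.47 for 190 genes with 2 and 0.58 for 40 genes with 3. Another 8 genes held 4 or more, with a median of 1.06, a bin too thin to read an order from. GRE1, TKL2 and POT1, among the largest rises, have no STRE in this window. RRPE (AAAATTTT) and PAC (GATGAG, or CTCATC), which are common in front of ribosome assembly genes, were in 9.39% and 18.4% of all windows and in 25.9% and 30.7% of those of genes that fell. RRPE was in 2.16% of the windows of genes that rose at least 2-fold. The Gcn4 core was in 8.71% of all windows, 12.2% of those of genes that fell and 10.5% of those that rose. Its share was 23.9% in the 71 genes that fell at least 2-fold. The pheromone element was in 7.35% of all windows, 10.2% of those of genes that fell and 3.47% of those that rose. Its share in the 71 was 18.3%. RRPE was in 12.7% of the 71 and PAC in 25.4%, lower shares than among all genes that fell. A Gcn4 core and a PAC read on the opposite strand can share bases, so those 2 counts are not separate. The CCAAT box (CCAAT, or ATTGG), bound by the Hap complex that activates respiratory genes, was in 44.1% of all windows, 47.0% of those of genes that rose and 39.7% of those that fell.

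**Figure D4:**
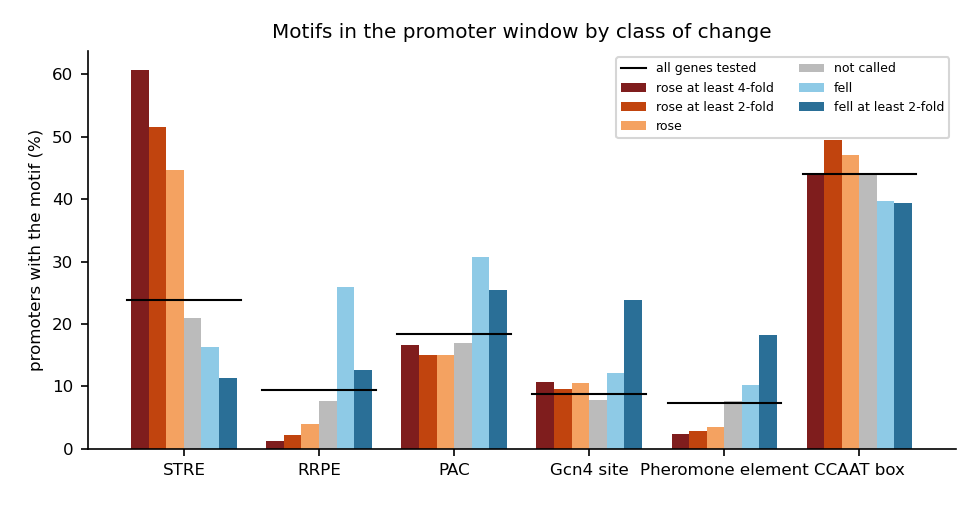
Share of promoters (y axis, per cent) holding each of 6 motifs in the window of 300 bases that begins 400 bases before the start codon, by class of change; the black line is the share in all genes tested. STRE rises from 11.3% in genes that fell at least 2-fold to 60.7% in genes that rose at least 4-fold, and RRPE is most frequent in genes that fell.

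The rises of the wild type were set beside those of the edc3∆lsm4∆C strain, whose libraries were not used to choose them. The 12 genes with the largest rises in the wild type all rose in the mutant, against 18% of all genes tested there, by 2.29 to 5.41 on the log2 scale. A limma test of the difference between the responses called 147 of 5684 genes (2.59%), with a higher response in the mutant in 1.9% and a lower in 0.686%; of these 12 it called GRE1, which rose by 4.27 ± 0.10 in the mutant (difference -1.33 ± 0.26, adjusted p = 0.0283). Of the 12 largest falls, MFA1, MFA2 and BAR1 are specific to a cells and barely read in the mutant, with 6 to 13 reads of MFA1 and 24 to 50 of BAR1 per library, and are left out here. Of the other 9, 4 fell in the mutant, 1 rose and 4 did not pass, against 15.7% of all genes that fell in the mutant. HIS4 changed by 0.17 ± 0.13 in the mutant (difference 2.19 ± 0.20, adjusted p = 0.00137), ADE17 by -0.26 ± 0.13 (2.18 ± 0.22, adjusted p = 0.00179) and IMD2 by -0.80 ± 0.12 (2.25 ± 0.24, adjusted p = 0.00215). LEU1 changed by -0.16 ± 0.09 (1.58 ± 0.12, adjusted p = 0.000667) and DIC1 by 0.73 ± 0.09 (2.64 ± 0.14, adjusted p = 9.81e-05). ADE17 and DIC1 were already low in the untreated mutant. With reads scaled to the total of each library, ADE17 stood at 90.6 and 69.7 there. ADE17 had 489 and 582 in untreated wild type and 119 and 96.4 in wild type in perchlorate. DIC1 had 72.9 and 80.8, 214 and 234, and 65.86 and 63.96 in the same order. What the starting level contributes to the differences was not tested. INA1 fell in both strains and its difference did not pass (-2.22 ± 0.09 in the mutant). The wild-type response that chose these genes is part of the difference tested, so the number of differences among these genes is a description.

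The strains differ in more than EDC3 and LSM4, so the difference cannot be assigned to those genes. LEU2 and MET17 were read in the mutant libraries and not in 3 of the 4 wild-type libraries compared. The 7 genes specific to a cells had a sum of 433 to 539 reads per mutant library, against 26425 and 26831 in untreated wild type. MF(ALPHA)1, the alpha-factor gene, gave 20775 and 22817 reads in the untreated mutant and 6140 and 6852 in the mutant in perchlorate. It gave 4 to 60 in the 4 wild-type libraries compared. All 7 a-cell genes fell in the wild type, against 12.1% of all genes, from a sum of 26831 and 26425 reads to 9726 and 9751. They had too few reads in the mutant for their response there to be compared. The mutant's own cell-type genes, 4 genes specific to alpha cells, also had fewer reads in perchlorate. Their sum went from 28805 and 32722 reads in the untreated mutant to 9413 and 10196 in perchlorate. Whether this fall and that of the a-cell genes in the wild type are related was not tested. Strain and genotype cannot be told apart here, and what LEU2 or mating type contributes to the differences in LEU1, HIS4 or ADE17 was not tested.

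**Figure D5:**
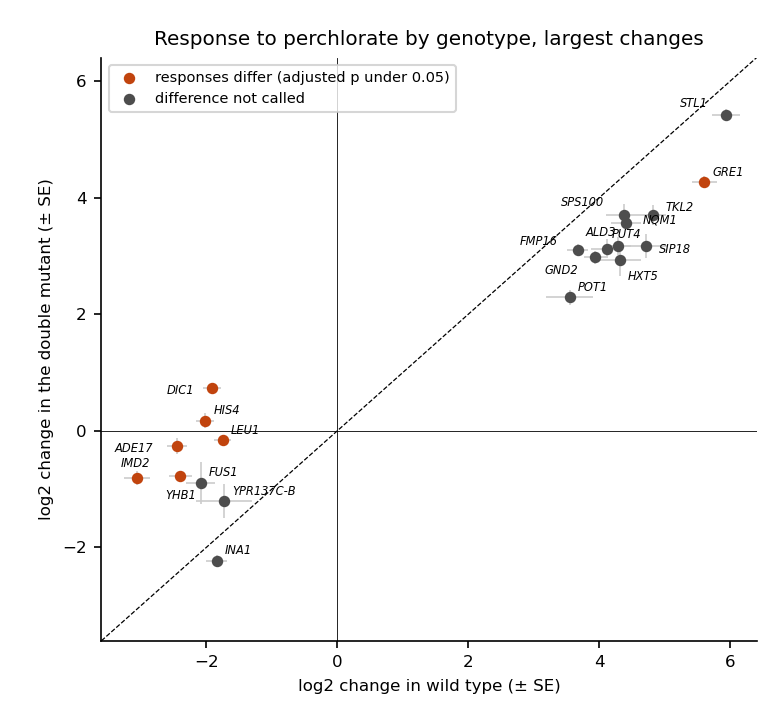
Log2 change in perchlorate in the edc3∆lsm4∆C strain (y axis) against that in the wild type (x axis) for the largest wild-type changes, without the genes specific to a cells, with standard errors; the dashed line marks equal responses, and red points are genes whose responses differed. The rises lie below the line, while HIS4, ADE17 and DIC1 lie well above it.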

How the data were processed

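Per the labels, hot phenol RNA went into a directional library kit. The deposited values are normalized counts (signal) that the authors made with DESeq2 1.34.0 after trimming with Trim Galore and alignment with HISAT2, per the submitters' processing notes and the deposited tables. For the read counter, its strand setting and the build, the sources used here give nothing; antisense and overlapping genes are therefore uncertain. Of 5946 transcripts, 5923 matched the R64 annotation by accession and 23 by locus tag, and 3 without an entry in the authors' comparison sheets were left out. Dividing by the size of 1 read gave whole reads within 0.01 for 100% of values. Changes are log2(value + 1) differences from limma 3.58.1 in R 4.3.3 (eBayes with trend, mean of at least 10, Benjamini-Hochberg adjusted p under 0.05), which understates changes of low genes; the authors' deposited table also holds DESeq2 log2 fold changes, a Wald score (the fold change over its standard error) and p-values and q-values, none used for calls. The alternatives edgeR 4.0.16 (quasi-likelihood test, 1511 genes called) and DESeq2 1.42.0 (1466) ran on the recovered reads. The unshocked wild type comes from a separately normalized table and was compared through recovered reads. The 12 largest rises and falls that did not overlap and had a mean of at least 50 are named. Beyond these the named genes are a selection. It holds members of some lists, mostly among their largest called changes, some of the pairs, and the hydrophilin and trehalose lists in full. Other lists and pairs were counted but not described, and some of these held called genes. Members and lists were chosen with earlier results of these data known. The fits were tested on simulated data.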

Additional observations from a re-analysis of the deposited data

Results flagged for a closer look

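The response to perchlorate differed between the edc3∆lsm4∆C strain and the wild type in the genes listed here, by the limma test of the difference itself. Each value is the response of the mutant minus that of the wild type on the log2 scale. In daughter cell genes it was 2.14 for DSE1 and 1.79 for DSE2. Genes specific to a cells, which the mutant libraries barely hold, are not listed. In purine genes it was 2.18 for ADE17, 1.13 for ADE13, 1.06 for ADE57, 2.25 for IMD2, 0.63 for IMD3 and 0.90 for HPT1. In amino acid synthesis it was 2.19 for HIS4, 0.97 for HIS1, 1.58 for LEU1, 1.81 for OAC1, 1.21 for BAT1, 1.67 for ARG1 and 0.97 for ARG4. It was 2.64 for DIC1, 1.61 for YHB1, 1.08 for ACO1, 1.01 for OPT2 and 0.92 for ENA1. The difference was negative for GRE1 (-1.33), PIR3 (-1.50), TIP1 (-0.78), YRO2 (-0.87) and URA3 (-1.01). The untreated level also differed between the strains in some of these genes. With reads scaled to each library's total, ADE13 had 260 and 241 in the untreated mutant and 275 and 258 in wild type in perchlorate. Untreated wild type had 548 and 576. BAT1 had 249 and 241, 275 and 272.5, and 597 and 648 in the same order. ARG1 and ARG4 started higher in the mutant, ARG1 at 887 and 843 against 279 and 338 in untreated wild type. The strains also differ in LEU2, MET17 and mating type. The part of these and of the untreated level in the differences was not tested.

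MET17 and LEU2, with 0 reads in both untreated libraries and in perchlorate replicate 1, had 51 and 23 reads in perchlorate replicate 2. MF(ALPHA)1 had 60 reads in that library, against 4 to 12 in the other 3. Such reads were also in wild-type libraries outside the main comparison. LEU2, MET17 and MF(ALPHA)1 had 20, 10 and 40 reads in unshocked replicate 2 and 23, 52 and 111 in shocked replicate 2. In unshocked replicate 1 they had 0, 0 and 12, and in shocked replicate 1 they had 5, 2 and 44.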

How the results depend on the processing

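The numbers of genes called, higher and lower stayed within 1.5 times of 1499, 811 and 688 with edgeR, DESeq2, TMM factors, another pseudocount and either filter on low values. Leaving out 1 library gave 511 to 2380 calls, 355 to 1285 higher, 156 to 1095 lower, and 75 to 387 differences between the strains. With the replicate block the counts were 2458 called, 1245 higher, 1213 lower and 266 differences. Libraries with the same number deviated together with a correlation of 0.287 over only 2 pairs, so the numbers were not taken to pair the samples. With the unshocked wild type as control 2632 genes were called, 1323 higher and 1309 lower; 900 were shared with the main calls, 648 of them with the same sign. The cause of these shifts was not tested. Against that control the log2 change turned direction for ATH1 (-0.20), ENO1 (-0.29), FAA3 (0.0817), GCY1 (-0.24), GPD2 (0.46), GSY1 (-2.94), GSY2 (-1.31), HSP26 (-0.14), HSP82 (-0.95), INO1 (-1.73), LEU9 (0.11), MES1 (0.29), NTH2 (-0.67), RKI1 (0.64), ROQ1 (-0.27), RPA49 (0.80), SHO1 (0.20), SOL4 (-0.74), STF1 (-0.37), STF2 (-0.61), TEF4 (0.0368), TMA10 (-0.68), TPS2 (-0.33), TPS3 (-0.41) and TSL1 (-0.59). The direction stayed but the call ended for CNA1, INA1, NTH1, OAC1, PAH1, PMC1, RPA43, SDH1, SPI1, STE11, TFS1, THS1, TIF4631, TPS1, URA3 and YRO2, 16 genes with log2 changes between -0.33 for OAC1 and 0.26 for TFS1. FPS1 (0.30) and SUR7 (-0.51) passed with that control and not in the main comparison. Leaving out 1 library moved GSY1 between -1.0 and 1.09. Genes under a mean of 10 were not tested, and 2 libraries a group limit the precision.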
